A study of Mus musculus with 2 samples.

Results

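The genes described here encode the signalling machinery of the T cell receptor: the CD3 chains, the coreceptors and accessory receptors beside them, the proximal kinases, the adaptors and effectors they act on, and the negative regulators. The list holds 38 genes chosen by function, with earlier results of these data known. A gene counted as measured where a probe set carries its symbol alone in the platform annotation. This gave 36 genes with 76 probe sets, out of 18193 named genes on the array, while Lck and Ptpn7 were not analysed here. CD4 T cells came from DO11.10 mice, a BALB/c line whose transgenic T cell receptor recognises an ovalbumin peptide. The cells were stimulated with that peptide for 6 days with 25 U/ml IL-2 and 100 U/ml IL-4, a culture that favours T helper 2 (Th2) cells. They were then moved into BALB/c nu/nu recipients, which are athymic and lack most T cells of their own but keep other blood cells. Memory Th2 cells were collected from the spleen 30 days later and sorted into cells that made interleukin-5 (IL-5+) and cells that did not (IL-5-). Both fractions share the transgenic receptor, the culture and the host, and the labels give neither the ages of the animals, nor the number pooled, nor how IL-5 was detected before the sort.

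A T cell receptor has no enzyme activity of its own. When it binds antigen, Src-family kinases phosphorylate the cytoplasmic tails of the CD3 chains, ZAP-70 docks there, and the adaptors LAT and SLP-76 then gather phospholipase C gamma 1, Vav1 and the Ras activators. The phospholipase makes inositol trisphosphate, which opens the calcium route through STIM1 and ORAI1, and diacylglycerol, which recruits protein kinase C theta and RasGRP1. Kinases, phosphatases, ubiquitin ligases and diacylglycerol kinases hold the pathway back at each of these steps.

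RNA of each fraction was read on 1 Affymetrix array. With no replicate in either group, no test was possible and every value below describes a single RNA sample per fraction. The quantity compared was the signal intensity, a brightness per probe set in arbitrary units, and, per gene, its log2 ratio with the IL-5+ signal over the IL-5- signal. A gene was represented by its brightest probe set, and a signal under 36.3, which is the 40th percentile over both arrays, was raised to that floor. How far probe sets of 1 gene in the same range of signal disagreed was taken as the error. It covers neither disagreement between bright and dim probe sets of a gene nor differences between preparations of cells. On the log2 scale this probe set SD was 0.54 at a mean signal up to 112.8, then 0.38 up to 500, 0.21 up to 2000 and 0.13 for brighter probe sets. The sorting marker Il5 had signals of 37085 and 67.4 on the IL-5+ and IL-5- arrays. Cd4, Cd3e, Cd3d, Cd3g and Cd28 lay above the floor on both arrays. Of the 5 B cell markers, 1 passed the floor on the IL-5+ array and 3 did on the other, with summed signals of 102.5 and 222.7. Of the 6 myeloid markers 2 and 4 passed it, with sums of 282.9 and 335.8. Of the 3 NK cell markers 1 and 0 passed it, with sums of 107.3 and 29.2. Of the 6 mast cell and basophil markers 2 and 3 passed it, of the 3 erythroid markers 2 and 1, and of the 2 CD8 T cell markers both on both arrays. The brightest pairs of these lists were Ms4a1 and Pax5, Csf1r and Cd68, Fcer1g and Ncr1, Kit and Gata2, Car2 and Hba-a1, and Cd8b1 and Cd8a, and apart from Cd8b1 (280.2 and 168.4) none exceeded 124.5 on either array.

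The genes of the CD3 chains were all lower on the IL-5+ array, and Cd3g, Cd3d and Cd3e are immediate neighbours in RefSeq's gene order on mouse chromosome 9. The bases just before each of these 3 genes are shown because the genes lie together and shared a direction. The windows are 190 bases long and come from RefSeq's GRCm38.p6 assembly, at chr9:44980432-44980621 (minus strand) for Cd3g, chr9:44981579-44981768 (plus strand) for Cd3d and chr9:45009664-45009853 (minus strand) for Cd3e. Each ends at the base before the gene's annotated span. Capitals mark matches on either strand to 6 motifs of factors known in T cells, namely TGTGGT for RUNX factors, AGGAAG for ETS factors, AGATAA for the GATA family, the letters CTTTGA for TCF/LEF factors, GTAAACA for FOXO factors and CAGCTG for E proteins.
Cd3g: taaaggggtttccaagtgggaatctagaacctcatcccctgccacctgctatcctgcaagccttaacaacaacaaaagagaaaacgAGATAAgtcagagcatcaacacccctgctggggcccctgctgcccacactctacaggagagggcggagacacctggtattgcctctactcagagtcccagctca
Cd3d: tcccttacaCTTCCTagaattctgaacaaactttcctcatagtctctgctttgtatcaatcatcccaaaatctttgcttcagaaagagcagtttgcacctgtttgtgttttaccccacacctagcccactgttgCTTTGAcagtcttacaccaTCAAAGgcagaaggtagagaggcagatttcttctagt
Cd3e: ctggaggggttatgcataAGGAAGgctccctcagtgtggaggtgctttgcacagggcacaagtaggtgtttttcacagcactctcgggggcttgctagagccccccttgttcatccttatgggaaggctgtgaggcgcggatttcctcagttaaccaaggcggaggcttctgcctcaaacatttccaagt
The Cd3g window holds 1 GATA match, 104 to 99 bases before the gene. The Cd3d window holds 1 ETS match and 2 TCF/LEF matches, and the Cd3e window holds 1 ETS match. No motif base is shared by overlapping matches. Over 32851 RefSeq promoter windows of 190 bases, 23.6% hold the ETS letters, 10.3% the TCF/LEF letters, 7.3% the GATA letters, 10.6% the RUNX letters, 10.4% the E protein letters and 2.34% the FOXO letters. No motif was matched in all 3 windows, and a match is a description of letters.

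Among the CD3 chains, Cd3g had an IL-5+ signal of 5472 and an IL-5- signal of 8947, a log2 ratio of -0.71. Cd3d had signals of 9116 and 13553 (log2 ratio -0.57). Cd3e, whose product pairs with both of these chains, had signals of 1952 and 2474 (log2 ratio -0.34). All 3 were dimmer on the IL-5+ array, and each was read by 1 probe set. Cd247, which encodes the zeta chain and is not a neighbour of the other 3, had signals of 3433 and 6033 at its brightest probe set, a log2 ratio of -0.81. Its other probe sets gave the same direction, and the 4 ranged from -0.81 to -0.37. The median log2 ratio of the 4 chain genes was -0.64, against -0.05 for the 13133 genes above the floor on 1 or both arrays. Each chain ratio was more than 2 times the probe set SD of 0.13 at these signals. In bulk RNA, fewer cells of a type and less RNA per cell cannot be told apart. MHC class II and dendritic cell markers were also lower on the IL-5+ array, where 4 of 6 passed the floor with a summed signal of 456, against 5 of 6 and 799.7 on the IL-5- array. The median log2 ratio of the 5 above the floor was -0.68. The brightest were H2-Ab1 (156.6 and 250.4) and Cd74 (139.7 and 163.9), the lowest ratio was that of H2-Aa (51 and 155.8, log2 ratio -1.61), and Flt3 was under the floor on both. Their part in these ratios was not tested.

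**Figure D1:**
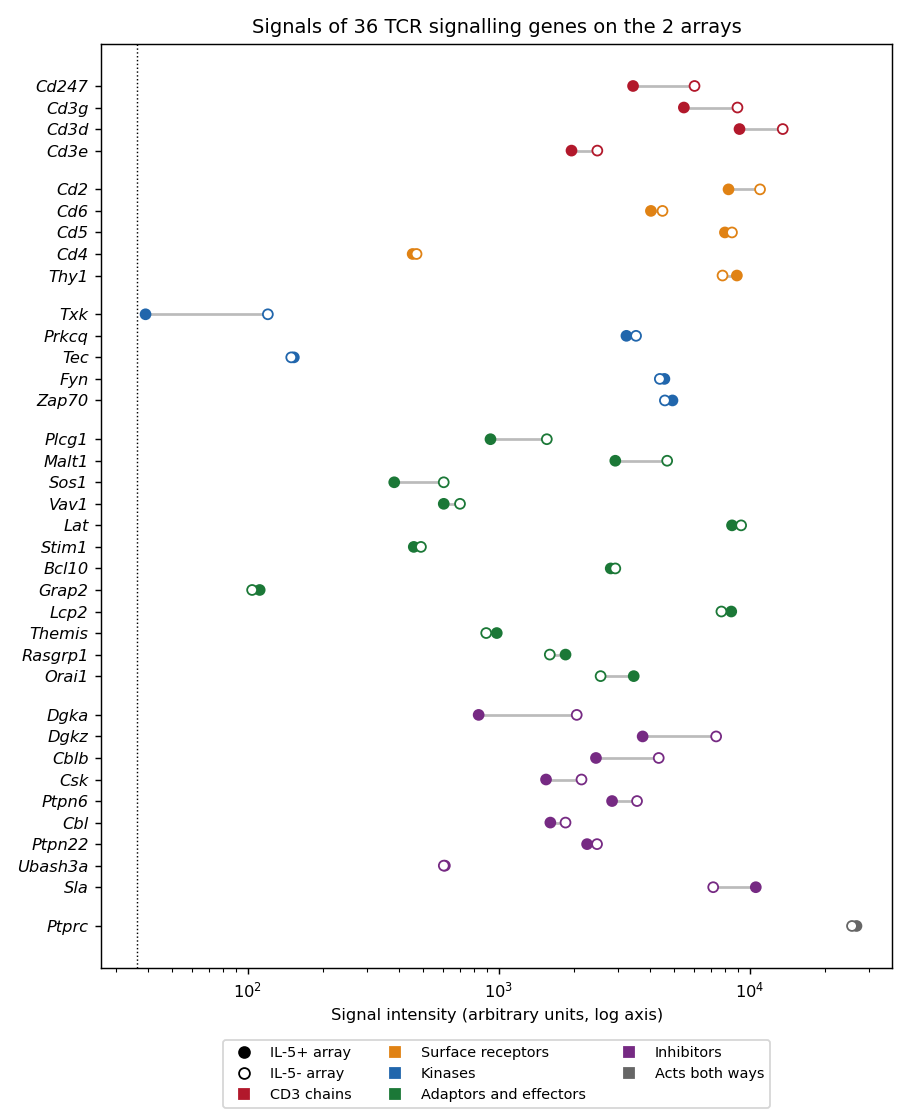
Signal intensity (log axis, arbitrary units) of the 36 genes on the IL-5+ array (filled) and the IL-5- array (open), at the brightest probe set of each gene and ordered by ratio within each role. The dotted line is the floor of 36.3; the 4 CD3 chain genes all sit to the left on the IL-5+ array, and Dgka (833 against 2048) and Txk (39.2 against 120.4) are the genes more than 2-fold apart.

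The coreceptor and accessory receptor genes lay nearer to 0. Cd4, whose product binds MHC class II and brings Lck to the receptor, had signals of 454.5 and 471 on the IL-5+ and IL-5- arrays, a log2 ratio of -0.05. Cd2, an adhesion receptor, was the lowest of the 5, with 8243 against 11005 (log2 ratio -0.42). Cd5 and Cd6, receptors that dampen signalling, stood at -0.09 and -0.15. Thy1, which encodes a lipid-anchored surface protein, was the only one above 0, with 8899 against 7801 (log2 ratio 0.19). The ratios of Cd4, Cd5, Cd6 and Thy1 were within 2 probe set SDs of 0, and that of Cd2 was not. The median of the 5 was -0.09. The phosphatase gene Ptprc (CD45), which both activates and restrains Src-family kinases, had signals of 26661 and 25585 at its brightest probe set, a log2 ratio of 0.06. Its second probe set gave -0.75, so its direction depends on the probe set.

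The kinase genes had nearly equal signals on both arrays, apart from a dim one. Zap70, the kinase that docks on phosphorylated CD3 chains, had 4929 and 4597 on the IL-5+ and IL-5- arrays (log2 ratio 0.10). Fyn, a Src-family kinase, had 4577 and 4389 (log2 ratio 0.06), and its 2 probe sets lay on either side of 0. Prkcq, encoding protein kinase C theta, had 3231 and 3529 (log2 ratio -0.13). These 3 ratios were no larger than the probe set SD of 0.13. Another Zap70 probe set, of a type that can match several transcripts, gave 0.61. Probe sets of that type are also among those given below for Bcl10, Stim1, Ptpn6 and Sla. Of the Tec-family kinases, which phosphorylate phospholipase C gamma 1, Tec itself was at 152.8 and 149.2 (log2 ratio 0.03). Txk had signals of 39.2 and 120.4, a log2 ratio of -1.62 and the largest of all 36 genes in size. Its IL-5+ signal lay just above the floor, and with a floor of 112.8 the ratio was -0.09, so that the 2-fold difference was lost. With a constant of 100 added to every signal in place of the floor it was -0.66.

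The adaptor genes at the centre of the signalosome were likewise similar on both arrays. Lat, the membrane scaffold, had 8510 and 9253 on the IL-5+ and IL-5- arrays (log2 ratio -0.12), and Lcp2, encoding SLP-76, had 8451 and 7721 (log2 ratio 0.13). Grap2, whose product links LAT to SLP-76, was dim, at 111.7 and 104.2 (log2 ratio 0.10). Vav1, whose product binds SLP-76, had 604.5 and 701.7 (log2 ratio -0.22). Themis, a T cell adaptor that binds Grb2, had ratios from 0.14 to 0.67 at 4 probe sets, with 0.14 at the brightest. None of these 5 was past 1.2-fold at its brightest probe set.

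The effectors downstream of the adaptors did not share a direction. Plcg1, encoding phospholipase C gamma 1, was lower on the IL-5+ array, with 928.1 against 1556 (log2 ratio -0.75). A second, dim Plcg1 probe set gave 0.08, and the median of both was -0.33. Malt1, the protease of the complex that leads to NF-kappaB, had 2917 and 4695 (log2 ratio -0.69). All 3 Malt1 probe sets were lower on the IL-5+ array, from -1.01 to -0.69. Its partner Bcl10 did not follow, with 2797 and 2917 (log2 ratio -0.06) and 4 probe sets from -0.06 to 0.16. Of the Ras activators, Rasgrp1 had 1848 and 1599 (log2 ratio 0.21), although its 4 probe sets ranged from -0.40 to 0.21. Sos1 had 383.8 and 604.4 (log2 ratio -0.66), with 4 probe sets from -0.66 to 0.38 and therefore no settled direction. In the calcium route, Orai1, the pore of the store-operated channel, was higher on the IL-5+ array, with 3454 against 2549 (log2 ratio 0.44). Both of its probe sets gave this direction, at 0.44 and 0.54. Stim1, the calcium sensor that opens it, had 459.2 and 490.4 (log2 ratio -0.09), with 0.46 at its other probe set.

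**Figure D2:**
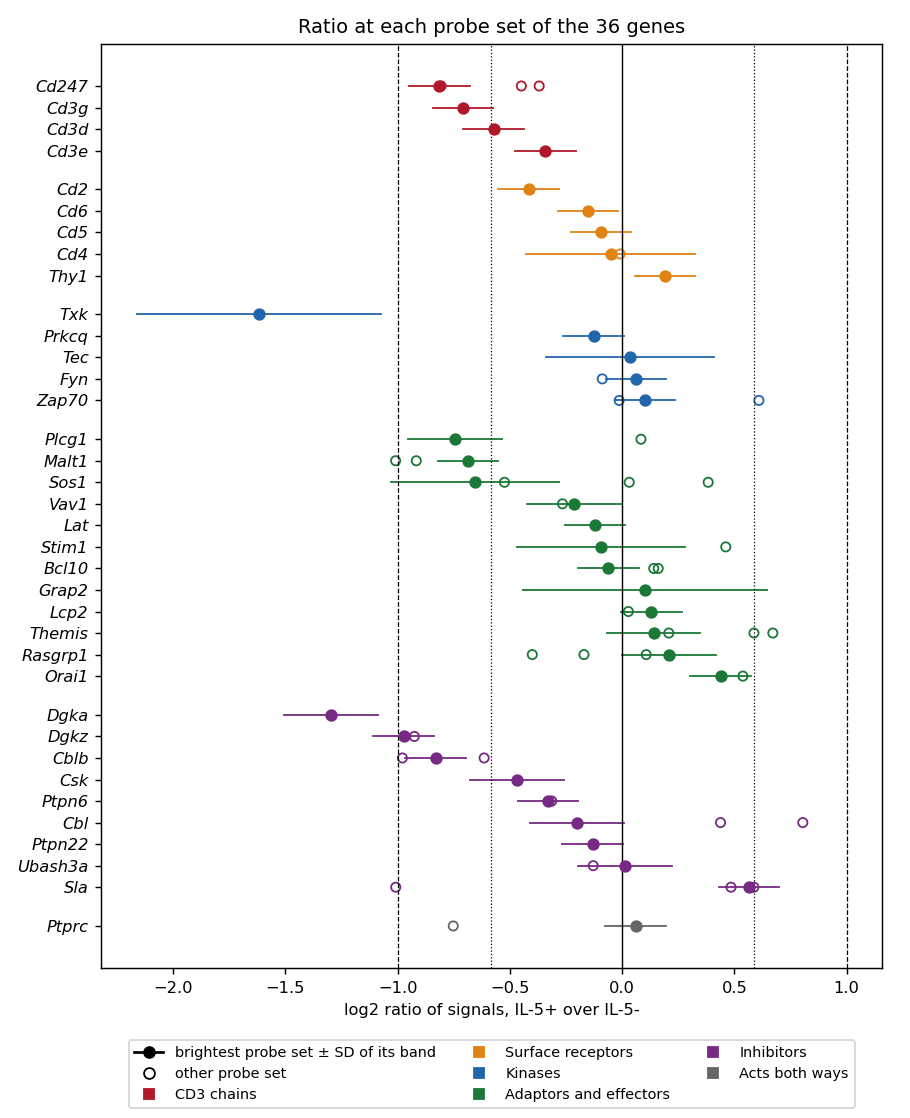
Log2 ratio (IL-5+ signal over IL-5- signal) at each probe set of the 36 genes that passed the floor, grouped by role. Filled points are the brightest probe set with a bar of 1 probe set SD for its signal range, open points the other probe sets, dashed lines 2-fold and dotted lines 1.5-fold; the probe sets of Cd247, Malt1, Cblb and Dgkz all lie below 0, while those of Sla, Cbl, Sos1 and Ptprc lie on both sides.

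The inhibitor genes ran from -1.30 to 0.56 on the log2 scale, with both diacylglycerol kinase genes and Cblb at the low end. Dgka, encoding a diacylglycerol kinase that removes the diacylglycerol made by phospholipase C, had an IL-5+ signal of 832.7 and an IL-5- signal of 2048. It was 2.46-fold lower on the IL-5+ array (log2 ratio -1.30) and was read by 1 probe set. Dgkz, the other diacylglycerol kinase of the list, had 3748 and 7358 (log2 ratio -0.97), with -0.93 at its second probe set. Cblb, a ubiquitin ligase that restrains signalling in the absence of costimulation, had 2443 and 4345 (log2 ratio -0.83). Its 3 probe sets ranged from -0.98 to -0.61. These 3 genes were the lowest of the inhibitors, and at similar brightness 1.49% of all genes had a lower ratio than Dgka, 1.61% than Dgkz and 1.98% than Cblb.

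Inhibitors that act on the proximal kinases differed less. Csk, which phosphorylates the inhibitory tyrosine of Src-family kinases, had 1545 and 2139 on the IL-5+ and IL-5- arrays (log2 ratio -0.47). Ptpn6, the phosphatase SHP-1, had 2832 and 3561 (log2 ratio -0.33), with -0.31 at its other probe set. Ptpn22, a phosphatase that works with Csk, had 2252 and 2467 (log2 ratio -0.13), which is within the probe set SD. Ubash3a, which encodes a phosphatase-like suppressor of Zap70, had 610.7 and 604.8 (log2 ratio 0.01). Cbl, the relative of Cblb, had 1608 and 1847 at its brightest probe set (log2 ratio -0.20), whereas the median over its 3 probe sets was 0.44. Sla, an adaptor that helps bring T cell receptor chains to degradation, went the other way, with 10585 against 7162 (log2 ratio 0.56). Of the 4 Sla probe sets, 3 lay from 0.48 to 0.59 and a dim one at -1.01. Sla had the highest ratio of the 36 genes, and Orai1 the next.

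Set side by side, the chains, activators and inhibitors differed in the share of genes with ratios below 0. All 4 chain genes had ratios below 0. Of the 17 activators, the kinases together with the adaptors and effectors, 9 were below 0 and 8 above, with a median of -0.06. Of the 9 measured inhibitors, 7 were below 0, with a median of -0.33 and a range from -1.30 to 0.56. The 7 include Cbl, whose sign depended on the probe set, and Ptpn22, which was within the probe set SD. Cd5 (-0.09) and Cd6 (-0.15), which also dampen signalling, were grouped with the receptors and lay nearer to 0 than that median. The ranges overlapped, since the activators ran from -1.62 to 0.44. At least 1.5-fold lower on the IL-5+ array were 2 of 4 chain genes, 4 of 17 activators (23.5%) and 3 of 9 inhibitors (33.3%). By that measure the activators and inhibitors lay closer together. Of the 5 coreceptor and accessory receptor genes, 4 were below 0 with a median of only -0.09, so small ratios count fully in a share below 0. Over all genes above the floor 55.5% were below 0 and 11.9% were at least 1.5-fold lower. These differences between roles were not tested, because the design has no replicates.

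By a 2-fold rule, 2 of the 36 genes were lower on the IL-5+ array (Dgka and Txk), against 4.01% of all genes above the floor, and 0 were higher, against 2.85%. Dgkz, at 1.96-fold, lay just outside. By a 1.5-fold rule 9 of 36 were lower, or 25% against 11.9% of all genes, and 0 were higher against 7.88%. The 9 were Dgka, Txk, Dgkz, Cblb, Cd247, Plcg1, Cd3g, Malt1 and Sos1, and Cd3d lay just outside at 1.49-fold. The 2-fold count is near the background. Because the list was chosen with earlier results of these data known, none of these shares can show whether the pathway departs from the background. Among genes with a mean signal above 2000, 5 of 22 members were at least 1.5-fold lower (22.7%), against 79 of 2429 genes (3.25%). There 0 members were at least 1.5-fold higher, against 4.65% of those genes. In total 13 of the 36 genes lay more than 2 probe set SDs below 0, against 9.11% of all genes, and 2 lay as far above it (Sla and Orai1), against 7.26%. Above a mean signal of 2000 this held for 9 of 22 members below 0, against 271 of 2429 genes (11.2%). Under 1.2-fold apart were 20 of the 36, against 51.2% of all genes.

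**Figure D3:**
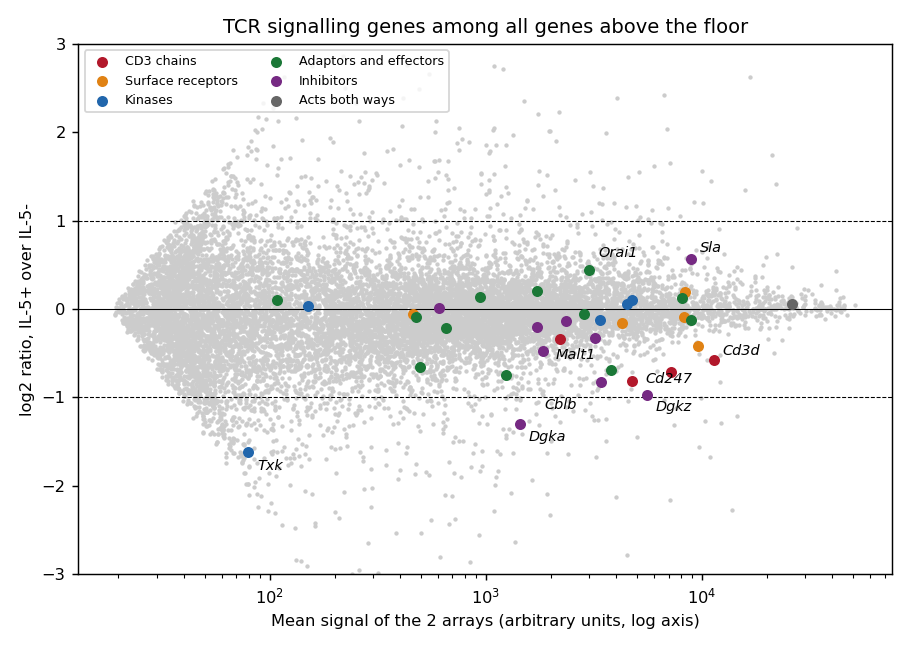
Log2 ratio (IL-5+ over IL-5-) against the mean signal of both arrays (log axis) for all genes above the floor (grey) and the 36 genes by role (coloured); genes beyond the vertical axis are not drawn. Dashed lines mark 2-fold. Dgka and Txk lie below the lower line. Dgkz, Cblb, Cd247, Cd3g, Malt1 and Cd3d lie at the lower edge of the genes of like brightness. Sla (0.56) and Orai1 (0.44) lie above 0.

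Other genes of the pathway were taken from a list of 59, of which 43 had a named probe set and 42 passed the floor. Their ratios were centred on 0, with a median of -0.01 and 21 genes on each side. By the 2-fold rule 1 was higher and 2 were lower on the IL-5+ array. Tespa1, a positive regulator of T cell receptor signalling in thymocytes, had signals of 1422 and 578.1 (log2 ratio 1.30), with 3 probe sets from 0.83 to 1.62. Fyb, the adaptor ADAP that joins SLP-76 to integrin activation, had 566.3 and 1761 (log2 ratio -1.64), with -1.50 at its second probe set. Sla2, a relative of Sla, was dim, at 39.3 and 85.9 (log2 ratio -1.13), and its 2 probe sets had opposite signs. Fyb was therefore the only one of the 3 lower or higher genes that was past 2-fold at every probe set.

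The next highest of this list were Itpkb, an inositol trisphosphate kinase (950.7 against 536.6, log2 ratio 0.83), and Nck2, an adaptor to the actin cytoskeleton (1058 against 600.3, 0.82). They were followed by Ubash3b, the close relative of Ubash3a (514.7 against 293.2, 0.81), Ppp3ca, a catalytic subunit of calcineurin (611.4 against 378.4, 0.69), and Sh2d2a, an Lck-binding adaptor (4645 against 3164, 0.55). All 3 probe sets of Nck2, Ubash3b and Ppp3ca were above 0, and the second Itpkb probe set was at -0.12. Ubash3b at its 3 probe sets ran from 0.81 to 1.18, while Ubash3a at its 2 ran from -0.13 to 0.01. The next lowest were Rasal3, a Ras GTPase-activating protein (758.6 against 1178, -0.64), and Lax1, an inhibitory transmembrane adaptor (88.8 against 133.8, -0.59). After these came Wipf1, the partner of the Wiskott-Aldrich syndrome protein (2996 against 4422, -0.56), Orai2, a relative of Orai1 (134.2 against 195.6, -0.54), and Inpp5d, the lipid phosphatase SHIP-1 (571.5 against 826.7, -0.53). Both probe sets of Rasal3 and of Wipf1 were below 0, and those of Orai2 and Inpp5d had opposite signs.

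**Figure D4:**
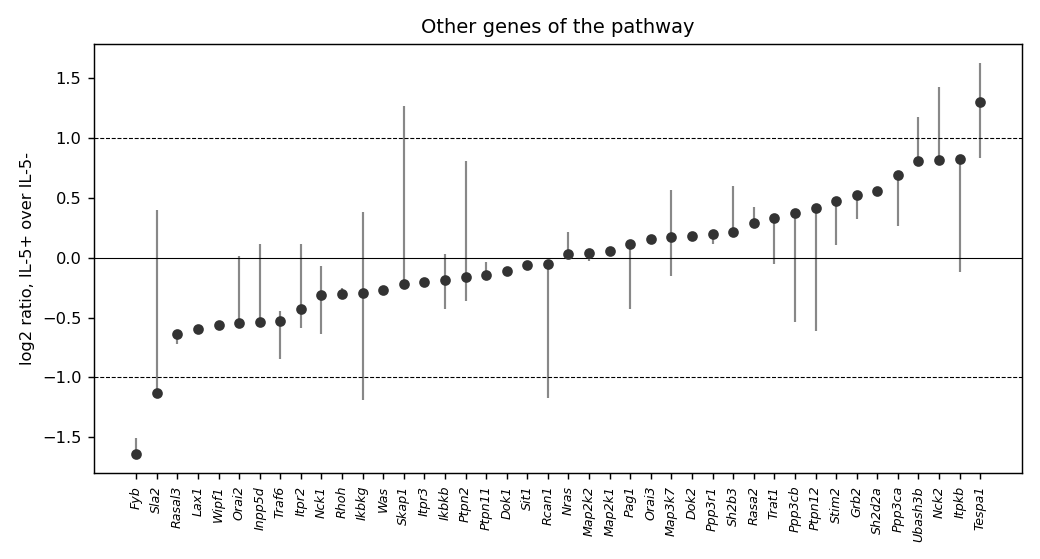
Log2 ratio (IL-5+ over IL-5-) of the 42 other pathway genes above the floor, in order of ratio; points are the brightest probe set, grey lines span all probe sets of the gene above the floor and dashed lines mark 2-fold. Fyb stands lowest with a short line, Tespa1 highest, and the lines of genes such as Skap1 and Ikbkg span both signs.

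**Figure D5:**
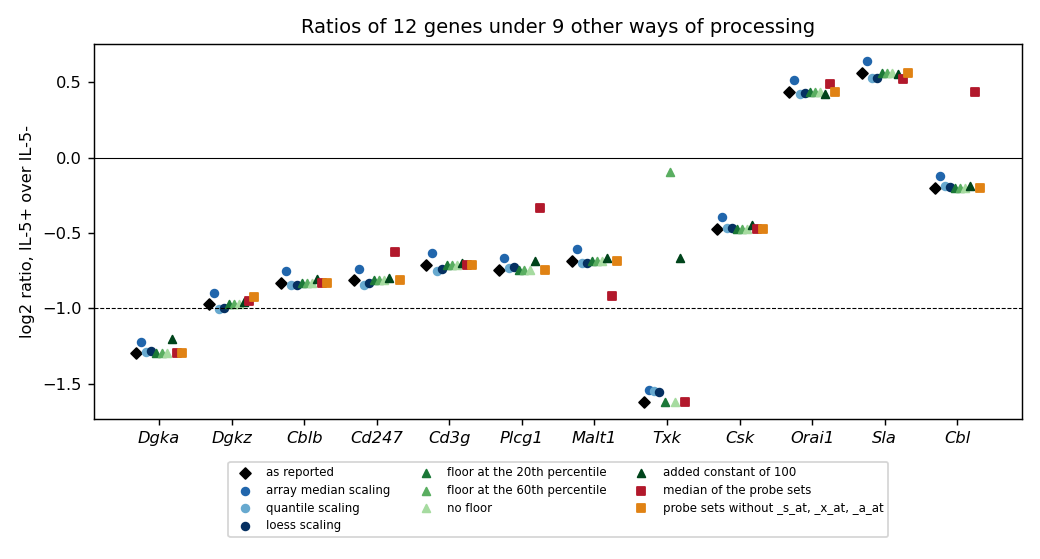
Log2 ratio of 12 genes as reported and under 9 other ways of scaling, flooring or choosing probe sets. The ratios of Dgka, Dgkz, Cblb, Cd3g, Csk, Orai1 and Sla stay close together, while Txk moves toward 0 with a floor of 112.8 and Cbl changes sign with the median of its probe sets.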

How the data were processed

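Both samples were read from the deposited table of signal intensity, 1 value per probe set and array. The submitters' processing notes name GCOS, Affymetrix software, for the step by which the authors made these intensity values. How it was set and scaled is not given in the sources used. The values are linear, from 0.1 to 51950, without detection calls. Trimmed means were 496 and 498 and medians 57.2 and 60.4 on the IL-5+ and IL-5- arrays, so ratios are relative to the rest of each array. Signals near background or saturation are compressed.

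Of 45037 probe sets, 34945 had 1 gene symbol, 932 several and 9160 were not listed. All 76 probe sets of the members kept their symbol through their entrez identifiers. Genes were represented by their brightest probe set by mean log2 signal. The named genes were all members, pathway genes at least 2-fold apart, and the next 5 highest and 5 lowest. Members and lists were chosen with earlier results of these data known. The probe set SD was pooled within genes over probe sets above the floor on both arrays, separately in each range of mean signal. Bright and dim probe sets of a gene were therefore not compared in it. RefSeq promoter windows were found for 32 of the 38 members, and not for Cd2, Cd4, Cd6, Malt1, Sla and Thy1. Other scalings, floors, choices of probe set and thresholds were tried as alternatives. Calling by the 2-fold rule was tried on simulated data with planted differences larger than those of Dgka and Txk. Recovery of differences near 2-fold was therefore not tried. The simulated noise was smaller than the probe set SD at mean signals from 112.8 to 500. The 1.2-fold, 1.5-fold and SD counts were not tried on simulated data. Python 3.11.15, numpy 2.4.6, pandas 2.3.3 and statsmodels 0.14.6 were used. The number of arrays limits the precision.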

Additional observations from a re-analysis of the deposited data

How the results depend on the processing

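No paired analysis was possible because each group has 1 array. Genes at least 2-fold higher and lower over the whole array numbered 374 and 526. A floor at the 20th percentile gave 1325 and 1572, one at the 60th 183 and 226, and none 2057 and 2311. An added constant of 100 gave 137 and 160. Other thresholds gave 1035 and 1560 at 1.5-fold and 91 and 143 at 3-fold. Division by the array median gave 435 and 443 (49.5% higher, against 41.6%). The count of members at least 2-fold lower was 2 as reported. It was 9 at 1.5-fold and 1 at 3-fold (Txk), and 1 (Dgka) with the higher floor, with the added constant and with probe sets of the suffixes _s_at, _x_at and _a_at left out. Quantile scaling gave 3, as Dgkz joined them. The choice by suffix leaves Txk with no probe set. No member was at least 2-fold higher under any of these settings. The medians moved by less than the probe set SD under the 9 alternatives to scaling, floor and probe set, from -0.68 to -0.56 for the chains and from -0.34 to -0.25 for the inhibitors. Those of the kinases (-0.01 to 0.11) and of the adaptors and effectors (-0.09 to 0.00) crossed 0. Of 320 ratios of single members under these alternatives, 11 moved by more than the probe set SD, in 9 genes, mostly with the median of the probe sets.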

Other observations

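The variable-segment symbol Trav9d-3 is attached to 5 probe sets, and 3 of them were very bright and nearly equal on both arrays. Their signals were 31544, 30488 and 30237 on the IL-5+ array and 32009, 30351 and 29911 on the IL-5- array. The other 2 had signals of 151.5 and 223.5 against 205.7 and 240.3. Which receptor transcripts the bright probe sets detect cannot be read from the table.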
